A study of Mus musculus with 6 samples.

Results

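The genes described here are the mitochondrial carriers of the Slc25 family, taken as every gene symbol made of Slc25a and a number. Of 23420 gene rows, 47 were members, and 39 of these had a mean of 1 CPM or more over the 6 libraries. CPM is the read count of a gene when the gene reads of its library are scaled to 1000000. Cells of Meta4, a line of mouse organoids with dysplastic epithelium, were sorted by flow cytometry into 2 subpopulations of dysplastic stem cells that the labels call TP-DSCs and DP-DSCs, with 3 polyA-selected libraries of each. The labels do not spell out these names; as known of the study otherwise, DP stands for CD133 and CD166 positive cells, TP for cells that also carry the CD44v6 form of CD44, and the line came from the stomach of mice that carry Mist1-driven Cre, which acts in chief cells. All 6 libraries share that origin, so 1 line stands for each group. The labels speak of independent samples without saying that cultures were separate, so p-values measure the spread between these libraries only. Values in every library are given in the order of replicates 1, 2 and 3.

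Mitochondrial carriers are membrane proteins, most of them in the inner membrane, that exchange nucleotides, phosphate, carboxylates, amino acids, cofactors and iron between the cytosol and the mitochondrial matrix. The nucleotide exchangers and the phosphate carrier feed ATP synthase and export the ATP it makes, while the aspartate/glutamate and oxoglutarate carriers form the shuttle that brings reducing equivalents into mitochondria. Several transport jobs are shared by closely related genes, and which of them a tissue uses differs between tissues.

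No Slc25 gene could be called higher or lower in TP-DSCs than in DP-DSCs, and the abundant members stood at similar levels in both. No member passed an adjusted p of 0.05 in edgeR's quasi-likelihood test, 0 of 39 against 0% of 11925 genes tested. At an unadjusted p under 0.05 there were 0 members, against 6.1% of all genes tested, and the smallest unadjusted p was 0.0956 (Slc25a4, edgeR). DESeq2 also called 0 members, against 0.78% of all genes, and limma-voom 0, against 0%. All members together took 4355, 4053 and 3447 CPM in TP-DSCs, against 4089, 3941 and 3617 CPM in DP-DSCs, so the groups overlapped. In such bulk libraries fewer cells that use a gene cannot be told apart from less RNA of it per cell.

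Reads were spread very unevenly over the family. The 2 most read genes, Slc25a5 and Slc25a3, held 45.9% of the family's reads, and the first 10 held 80.3%. In all, 8 members had a mean of 100 CPM or more, 25 lay between 10 and 100 CPM, and 6 between 1 and 10 CPM. A further 3 members, Slc25a2, Slc25a21 and Slc25a34, had reads in DP-DSCs only and stayed under 1 CPM on average. Missing reads in TP-DSCs were common among scarce genes of any kind. Of 603 genes with a DP-DSCs mean of 1 to 2 CPM, TP-DSCs replicates 1, 2 and 3 lacked reads for 72.8, 78.6 and 76.0%. The share of all genes with reads in DP-DSCs only was not computed. The remaining 5 members, Slc25a18, Slc25a31, Slc25a41, Slc25a43 and Slc25a54, had 0 reads in all 6 libraries. A count of 0 allows up to 3 reads, which is 0.0966 to 0.176 CPM in the TP-DSCs libraries and 0.0918 to 0.111 CPM in the DP-DSCs libraries; these limits cover counting error only.

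**Figure D1:**
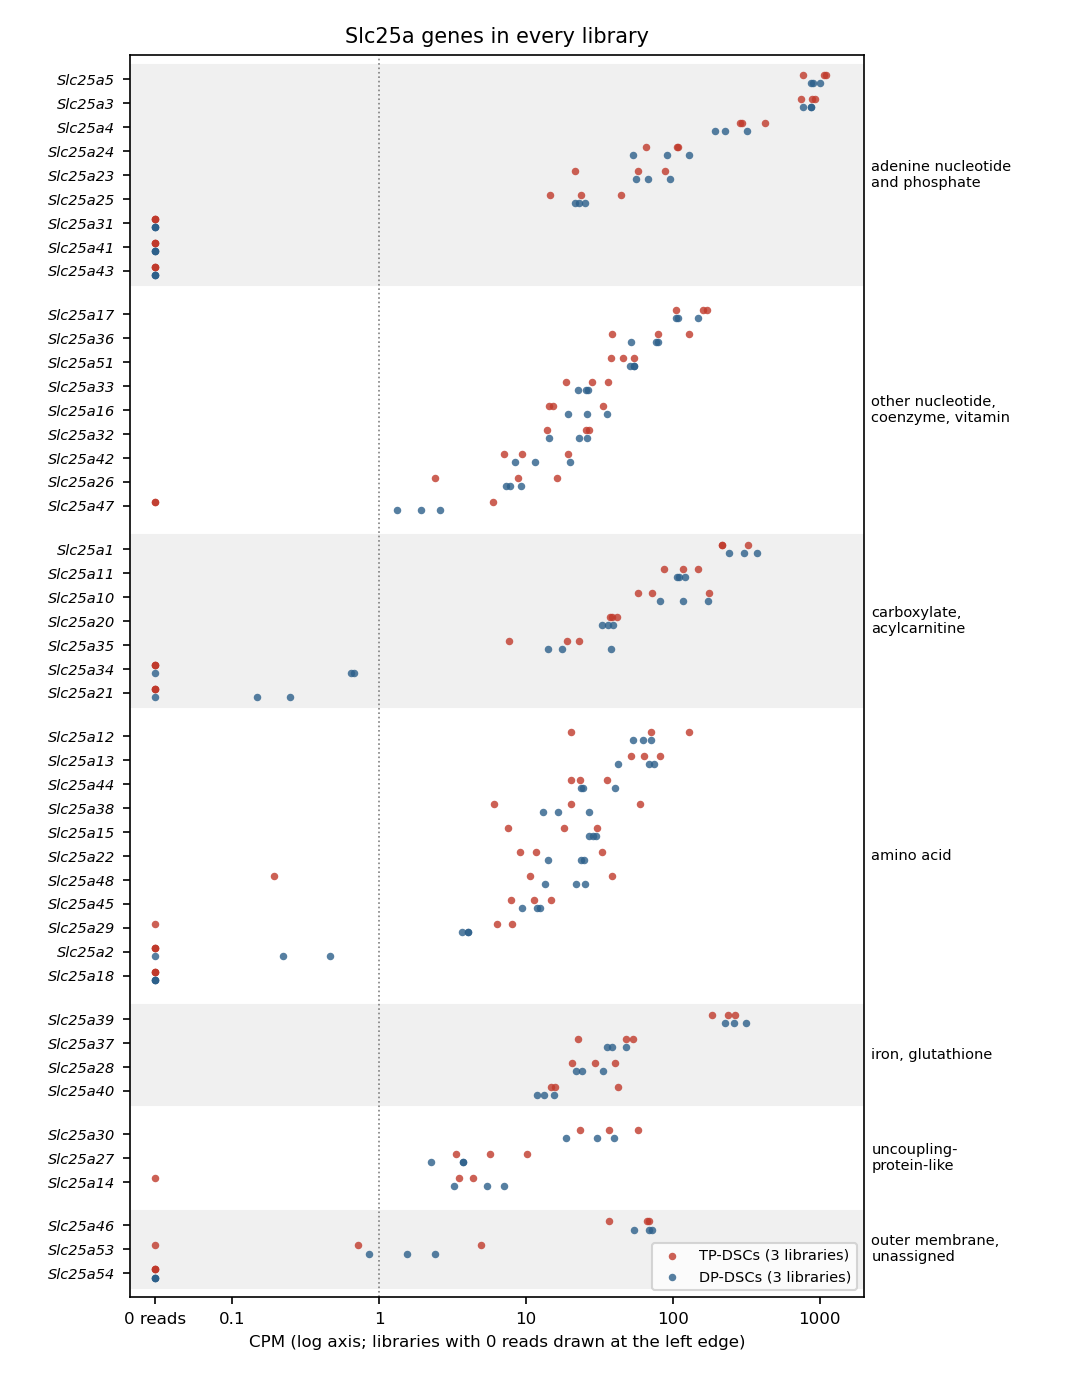
CPM of the Slc25a genes reported here (log axis) in the 3 TP-DSCs and 3 DP-DSCs libraries, grouped by role, with libraries of 0 reads at the left edge and a dotted line at 1 CPM. The points of both groups lie over each other for most genes, while Slc25a18, Slc25a31, Slc25a41, Slc25a43 and Slc25a54 have 0 reads in all 6 libraries.

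The contrast between the most read member and members without a read is shown with the sequence before their starts. Slc25a5 encodes ADP/ATP translocase ANT2 and lies on chromosome X from 36795651 to 36798807 in GENCODE M21 (GRCm38, the assembly of mm10), on the plus strand. Slc25a43, its nearest family member, lies on the same strand from 36743659 to 36777202 and ends 18449 bases before it. Slc25a31, which encodes the germ cell translocase ANT4, lies on chromosome 3 from 40708855 to 40726096. The sequences are RefSeq promoter windows of GRCm38.p6, cut to the bases before both the RefSeq and the GENCODE start, read 5′ to 3′ on the plus strand, with CG dinucleotides in capitals. They are chrX:36795347-36795596 for Slc25a5, chrX:36743382-36743631 for Slc25a43 and chr3:40708621-40708854 for Slc25a31.
Slc25a5: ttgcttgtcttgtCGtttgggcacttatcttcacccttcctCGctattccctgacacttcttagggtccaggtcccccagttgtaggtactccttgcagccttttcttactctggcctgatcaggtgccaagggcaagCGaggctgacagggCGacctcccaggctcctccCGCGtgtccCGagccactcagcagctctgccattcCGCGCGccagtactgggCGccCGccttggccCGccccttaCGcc
Slc25a43: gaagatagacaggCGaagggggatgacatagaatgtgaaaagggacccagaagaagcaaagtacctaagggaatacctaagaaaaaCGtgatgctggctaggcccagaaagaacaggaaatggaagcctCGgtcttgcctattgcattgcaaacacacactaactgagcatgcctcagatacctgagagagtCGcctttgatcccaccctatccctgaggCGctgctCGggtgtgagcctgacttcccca
Slc25a31: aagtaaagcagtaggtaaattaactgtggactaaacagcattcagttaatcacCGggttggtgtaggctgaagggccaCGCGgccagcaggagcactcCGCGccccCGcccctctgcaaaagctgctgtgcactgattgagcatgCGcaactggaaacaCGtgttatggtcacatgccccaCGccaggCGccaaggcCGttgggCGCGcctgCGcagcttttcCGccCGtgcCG

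The Slc25a5 window held 14 CG dinucleotides and the Slc25a43 window 6, each in 250 bases, and the Slc25a31 window held 17 in 234 bases. The window of a gene without reads could thus be as rich in CG as that of the most read member. RefSeq windows were matched for 36 of the 47 members. Over the 250 bases before the start, the 30 matched members of 1 CPM or more had a median of 14 CG dinucleotides (range 4 to 40) and the 6 matched members under 1 CPM a median of 5 (range 1 to 18), beside a median of 6 over all 27025 genes with a window. The TATA box TATAAA, read on both strands, stood in 1 of the 36 windows (Slc25a18) and in 12.97% of all windows. The CCAAT box, CCAAT on either strand, stood in 16 of 36 (44.4%) and in 34.5% of all windows. Neither motif contains the other, and a match or its lack is a description of the window only.

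Adenine nucleotide and phosphate carriers made up 58.0% of the family's CPM. Their 9 genes together took 2526, 2478 and 2023 CPM in TP-DSCs, against 2118, 2410 and 2074 CPM in DP-DSCs. Per transcript length Slc25a5 was the highest member of all, at 769.7 CPM per kb, followed by the phosphate carrier Slc25a3 at 523 CPM per kb. Slc25a5 had 1111, 1064 and 768 CPM in TP-DSCs, against 876, 1008 and 899 CPM in DP-DSCs. The lowest and the highest library were both TP-DSCs, and the log2 fold change was 0.078 ± 0.23 (SE, edgeR adjusted p = 0.999). Slc25a3, which brings in the phosphate that ATP synthase uses, had 921, 881 and 746 CPM in TP-DSCs, against 873, 875 and 766 CPM in DP-DSCs. Its log2 fold change was 0.011 ± 0.21, with a 95% interval of -0.47 to 0.49, which leaves room for a difference but not for a 2-fold one.

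Slc25a4 encodes ANT1, the translocase of heart and muscle, and lies on chromosome 8 from 46206797 to 46211284. It had 285, 423 and 298 CPM in TP-DSCs, against 195, 319 and 228 CPM in DP-DSCs. The groups overlapped only through the highest DP-DSCs library, and the log2 fold change was 0.43 ± 0.23, which did not pass (edgeR adjusted p = 0.999, DESeq2 adjusted p = 0.872). Within the libraries named 3840 the difference was 0.58 and within those named 4140 it was 0.36 (log2 CPM), so it pointed upward in both. Per length, Slc25a5 exceeded Slc25a4 in every library, by 6.04, 3.91 and 4.01 times in TP-DSCs, against 6.99, 4.91 and 6.13 times in DP-DSCs. This was 1 of 6 ratios tested between related genes; the groups overlapped in it, with p = 0.2 in a two-sided exact permutation test (adjusted over the 6 ratios, 0.9), where 0.1 is the lowest p possible. The 6 striated muscle markers, whose tissue is rich in ANT1, summed to 0 to 3.73 CPM in TP-DSCs and 3.28 to 8.35 CPM in DP-DSCs. Of these, Ckm and Actc1 had 0 reads, Acta1 at most 0.074 CPM, and Tnnt2, Myh7 and Mb up to 5.88, 4.72 and 1.81 CPM, each in a DP-DSCs library.

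The ATP-Mg/phosphate carriers, which adjust the adenine nucleotide content of the matrix, were represented by 3 genes. Slc25a24 had 106, 65.8 and 108 CPM in TP-DSCs, against 53.4, 129 and 90.9 CPM in DP-DSCs. Slc25a23 had 58.0, 21.5 and 88.6 CPM in TP-DSCs, against 95.4, 56.5 and 67.5 CPM in DP-DSCs. Slc25a25 had 44.5, 23.6 and 14.6 CPM in TP-DSCs, against 25.1, 21.7 and 23.1 CPM in DP-DSCs. None was apart between the groups, and the log2 fold changes were 0.045 ± 0.34, -0.41 ± 0.50 and 0.26 ± 0.51 for Slc25a24, Slc25a23 and Slc25a25. The Slc25a23 value was -0.017 without TP-DSCs replicate 2, and the Slc25a25 value -0.38 without TP-DSCs replicate 1. Slc25a25 shares 379 exon bases with Naif1 on the opposite strand, and the strand setting of the counting is not given in the sources used here. Naif1 had 5.89, 14.6 and 6.50 CPM in TP-DSCs, against 2.45, 1.99 and 2.29 CPM in DP-DSCs, and its part in the Slc25a25 values was not tested.

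Carriers of other nucleotides, coenzymes and vitamins counted 10 genes, all at 1 CPM or more, with 5 fitted above and 5 below 0. Slc25a17, a carrier of the peroxisomal membrane, had 161, 169.6 and 106 CPM in TP-DSCs, against 149, 108 and 105 CPM in DP-DSCs. Its log2 fold change was 0.25 ± 0.28. The pyrimidine nucleotide carriers Slc25a36 and Slc25a33 averaged 14.5 and 13.9 CPM per kb. The ratio of Slc25a36 to Slc25a33 per length was 0.782, 0.753 and 1.65 in TP-DSCs, against 1.12, 0.713 and 1.22 in DP-DSCs. In plain CPM Slc25a36 was the higher in every library. The close means per length thus rest on the lengths used, 5227 bases for Slc25a36 and 1887 for Slc25a33. Slc25a36 had 79.0, 38.7 and 128 CPM in TP-DSCs, against 79.3, 52.2 and 76.5 CPM in DP-DSCs. Slc25a33 had 36.4, 18.6 and 28.0 CPM in TP-DSCs, against 25.6, 26.4 and 22.6 CPM in DP-DSCs. In both, TP-DSCs held the lowest and the highest library. Slc25a51, the carrier of NAD, had 45.5, 54.1 and 38.1 CPM in TP-DSCs, against 54.0, 51.0 and 54.3 CPM in DP-DSCs. The TP-DSCs libraries spread around and below the closely grouped DP-DSCs ones, and the log2 fold change was -0.23 ± 0.24.

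The coenzyme A carriers Slc25a16 and Slc25a42 both varied as much within as between groups. Slc25a16 had 33.5, 14.3 and 15.3 CPM in TP-DSCs, against 35.6, 19.3 and 25.9 CPM in DP-DSCs. Slc25a42 had 19.4, 7.05 and 9.40 CPM in TP-DSCs, against 20.1, 11.5 and 8.40 CPM in DP-DSCs. In both genes replicate 1 was the highest library of its group, and replicate 1 of each group is the library named 3840. Slc25a32, the folate and FAD carrier, ranged from 13.9 to 26.8 CPM in TP-DSCs and from 14.2 to 26.2 CPM in DP-DSCs. Slc25a26, which imports S-adenosylmethionine, ranged from 2.40 to 16.2 CPM in TP-DSCs and from 7.27 to 9.25 CPM in DP-DSCs.

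Carriers of di- and tricarboxylates, keto acids and acylcarnitine held 5 genes at 1 CPM or more, of which 2 were fitted above and 3 below 0. Slc25a1 exports citrate, the source of cytosolic acetyl-CoA for lipid synthesis, and ranked 3 of 47 per length, at 168 CPM per kb. It had 324, 217 and 218 CPM in TP-DSCs, against 373, 241 and 306 CPM in DP-DSCs. The groups overlapped, with a log2 fold change of -0.29 ± 0.29. Slc25a11, the oxoglutarate/malate carrier, had 117, 149 and 86.3 CPM in TP-DSCs, against 111, 107 and 121 CPM in DP-DSCs, a log2 fold change of 0.039 ± 0.24.

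The dicarboxylate carrier Slc25a10 followed the library names more than the sort. It had 177, 72.3 and 57.6 CPM in TP-DSCs, against 172, 118 and 81.4 CPM in DP-DSCs. The libraries named 3840, 1 of each group, were the highest, and the log2 fold change between groups was -0.26 ± 0.51, or -1.02 without TP-DSCs replicate 1. Slc25a20, which exchanges acylcarnitines for carnitine in fatty acid oxidation, was even over all libraries, with 38.6, 41.5 and 37.0 CPM in TP-DSCs, against 33.0, 36.1 and 39.4 CPM in DP-DSCs. Slc25a35 had 19.0, 23.0 and 7.63 CPM in TP-DSCs, against 37.95, 14.1 and 17.7 CPM in DP-DSCs, a log2 fold change of -0.52 ± 0.65 that was 0.047 without DP-DSCs replicate 1. It shares 1151 of its 3677 annotated exon bases with Rangrf on the opposite strand, which had 43.8, 21.9 and 12.04 CPM in TP-DSCs, against 13.1, 16.4 and 19.7 CPM in DP-DSCs.

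The group listed as amino acid carriers held 11 genes, with 9 at 1 CPM or more, 4 fitted above and 5 below 0. Slc25a48 was counted in this group by the list used, which is no statement of what it carries. The aspartate/glutamate carriers of the malate-aspartate shuttle were both present. Slc25a12 (aralar) had 70.8, 129 and 20.2 CPM in TP-DSCs, against 70.8, 62.4 and 53.1 CPM in DP-DSCs. Slc25a13 (citrin) had 63.7, 52.1 and 82.2 CPM in TP-DSCs, against 74.4, 42.3 and 68.6 CPM in DP-DSCs. Per length Slc25a13 exceeded Slc25a12 in 5 of 6 libraries, the exception being TP-DSCs replicate 2, where Slc25a12 stood at 1.22 times Slc25a13. That ratio was 0.546, 1.22 and 0.121 in TP-DSCs, against 0.468, 0.726 and 0.380 in DP-DSCs (exact two-sided permutation test, p = 0.9). In plain CPM Slc25a12 was the higher in TP-DSCs replicates 1 and 2 and in DP-DSCs replicate 2. The order per length thus rests on the lengths used, 6351 bases for Slc25a12 and 3121 for Slc25a13.

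For glutamate and ornithine 1 gene of each pair carried the reads. The glutamate carrier Slc25a22 had 11.6, 32.7 and 9.04 CPM in TP-DSCs, against 23.5, 24.9 and 14.1 CPM in DP-DSCs, while Slc25a18 had 0 reads throughout. The ornithine carrier Slc25a15 had 30.5, 7.58 and 18.02 CPM in TP-DSCs, against 28.7, 29.97 and 27.0 CPM in DP-DSCs. Slc25a2, its intronless relative, had 0 CPM in the TP-DSCs libraries, against 0.46, 0 and 0.222 CPM in DP-DSCs. Slc25a15 had the smallest p among members fitted lower, with a log2 fold change of -0.59 ± 0.57 and an unadjusted edgeR p of 0.332. This value was -1.24 without TP-DSCs replicate 1 and -0.20 without TP-DSCs replicate 2. For Slc25a15, TP-DSCs replicate 1 lay above all 3 DP-DSCs libraries and the other TP-DSCs libraries below them.

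Slc25a38, which brings glycine into mitochondria for heme synthesis, had 6.05, 20.2 and 59.7 CPM in TP-DSCs, against 13.1, 27.0 and 16.5 CPM in DP-DSCs. Its log2 fold change of 0.56 ± 0.76 rested on TP-DSCs replicate 3, without which it was -0.53. Slc25a44, a branched-chain amino acid carrier, ranged from 20.3 to 35.5 CPM in TP-DSCs and from 23.6 to 40.7 CPM in DP-DSCs. Slc25a48 had 38.2, 10.6 and 0.193 CPM in TP-DSCs, against 25.3, 13.4 and 21.8 CPM in DP-DSCs, the lowest of these being 6 reads. Slc25a45 ranged from 7.90 to 14.9 CPM in TP-DSCs and from 9.36 to 12.4 CPM in DP-DSCs.

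The 4 iron and glutathione carriers were all present. The mitoferrins bring iron into the matrix for heme and iron-sulfur clusters, Slc25a37 mainly in erythroid cells and Slc25a28 broadly. Slc25a37 had 53.4, 22.6 and 48.3 CPM in TP-DSCs, against 47.7, 38.4 and 35.9 CPM in DP-DSCs. Slc25a28 had 29.3, 40.5 and 20.4 CPM in TP-DSCs, against 33.3, 24.0 and 22.0 CPM in DP-DSCs. Per length Slc25a28 was the higher of the pair in all 6 libraries, the ratio of Slc25a37 to Slc25a28 being 0.671, 0.205 and 0.870 in TP-DSCs, against 0.526, 0.588 and 0.599 in DP-DSCs. In plain CPM Slc25a37 was the higher in all but TP-DSCs replicate 2. The order per length thus rests on the lengths used, 4174 bases for Slc25a37 and 1535 for Slc25a28. The erythroid markers Hba-a1, Hba-a2 and Alas2 had 0 reads in all 6 libraries, so the Slc25a37 reads were not accompanied by erythroid transcripts.

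The mitochondrial glutathione carriers differed widely in level. Slc25a39 had 266, 184 and 238 CPM in TP-DSCs, against 312, 261 and 226 CPM in DP-DSCs, and ranked 5 of 47 per length, at 147 CPM per kb. Slc25a40, its relative on chromosome 5 from 8422850 to 8454797, had 14.7, 42.5 and 15.9 CPM in TP-DSCs, against 11.9, 15.5 and 13.3 CPM in DP-DSCs, and stood at 6.81 CPM per kb. On the TMM scale (library sizes corrected for composition) Slc25a40 was the 1 member whose groups did not overlap, 1 of 39 (2.56%) against 12.9% of all genes tested, of which 4.03% were higher and 8.88% lower in TP-DSCs. In plain CPM the groups overlapped, DP-DSCs replicate 2 lying above TP-DSCs replicate 1. The log2 fold change was 0.81 ± 0.56 (edgeR adjusted p = 0.999) and 0.19 without TP-DSCs replicate 2. The ratio of Slc25a39 to Slc25a40 per length was 29.8, 7.17 and 24.8 in TP-DSCs, against 43.3, 27.9 and 28.0 in DP-DSCs (exact two-sided permutation test, p = 0.3).

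**Figure D2:**
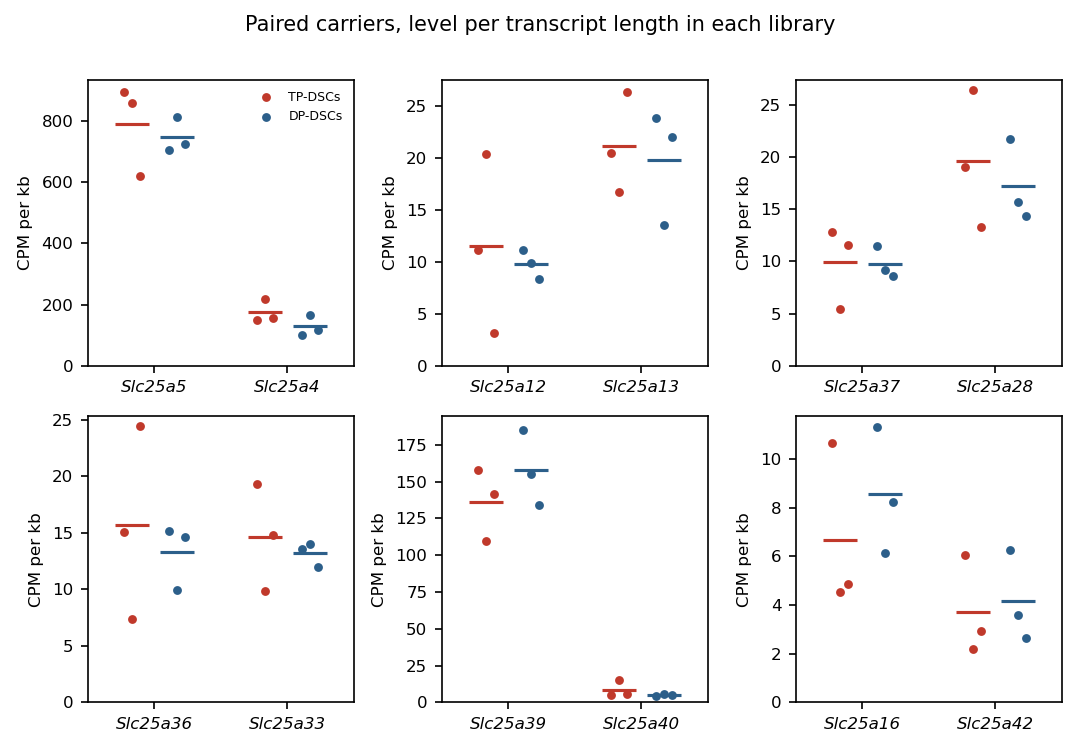
CPM per kb of longest coding transcript for 6 pairs of related carriers; points are libraries and lines the mean of each group, TP-DSCs left of DP-DSCs. Slc25a5 lies above Slc25a4 and Slc25a39 above Slc25a40 in every library, whereas Slc25a12 exceeds Slc25a13 in TP-DSCs replicate 2 alone.

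The uncoupling protein-like members were low apart from Slc25a30. Slc25a30 had 36.6, 23.3 and 58.3 CPM in TP-DSCs, against 39.6, 18.7 and 30.3 CPM in DP-DSCs. Its log2 fold change was 0.38 ± 0.46, and 0.036 without TP-DSCs replicate 3. Slc25a27 had 3.33, 10.2 and 5.66 CPM in TP-DSCs, against 3.74, 2.27 and 3.70 CPM in DP-DSCs. It had the highest fitted value of the family, 0.93 ± 1.03, with an interval of -1.49 to 3.35. Slc25a46, an outer membrane member with a role in mitochondrial shape, had 66.9, 68.9 and 36.6 CPM in TP-DSCs, against 69.2, 72.3 and 54.4 CPM in DP-DSCs. Its log2 fold change was -0.19 ± 0.31.

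Taking all 39 members, 22 (56.4%) were fitted above and 17 below 0, with a median log2 fold change of 0.039, beside 48.2% of all genes tested above 0 and a median of -0.019. The fitted value lay within 0.5 of 0 for 32 members (82.1%), against 69.5% of all genes tested. For 13 members (33.3%) the 95% interval lay wholly inside a 2-fold difference either way, against 32.6% of all genes tested. These were Slc25a1, Slc25a3, Slc25a4, Slc25a5, Slc25a11, Slc25a13, Slc25a17, Slc25a20, Slc25a24, Slc25a37, Slc25a39, Slc25a46 and Slc25a51. For the other 26 a 2-fold difference lay inside the interval, so the libraries could not show whether one exists. When known changes were put into simulated counts of all 11925 genes, edgeR found 1.2% of the 2-fold ones and 35.4% of the 4-fold ones. The changed genes were drawn from all those of 1 CPM or more, with the same spread in both groups. These rates are thus averages over genes of all levels and are not those of single members.

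**Figure D3:**
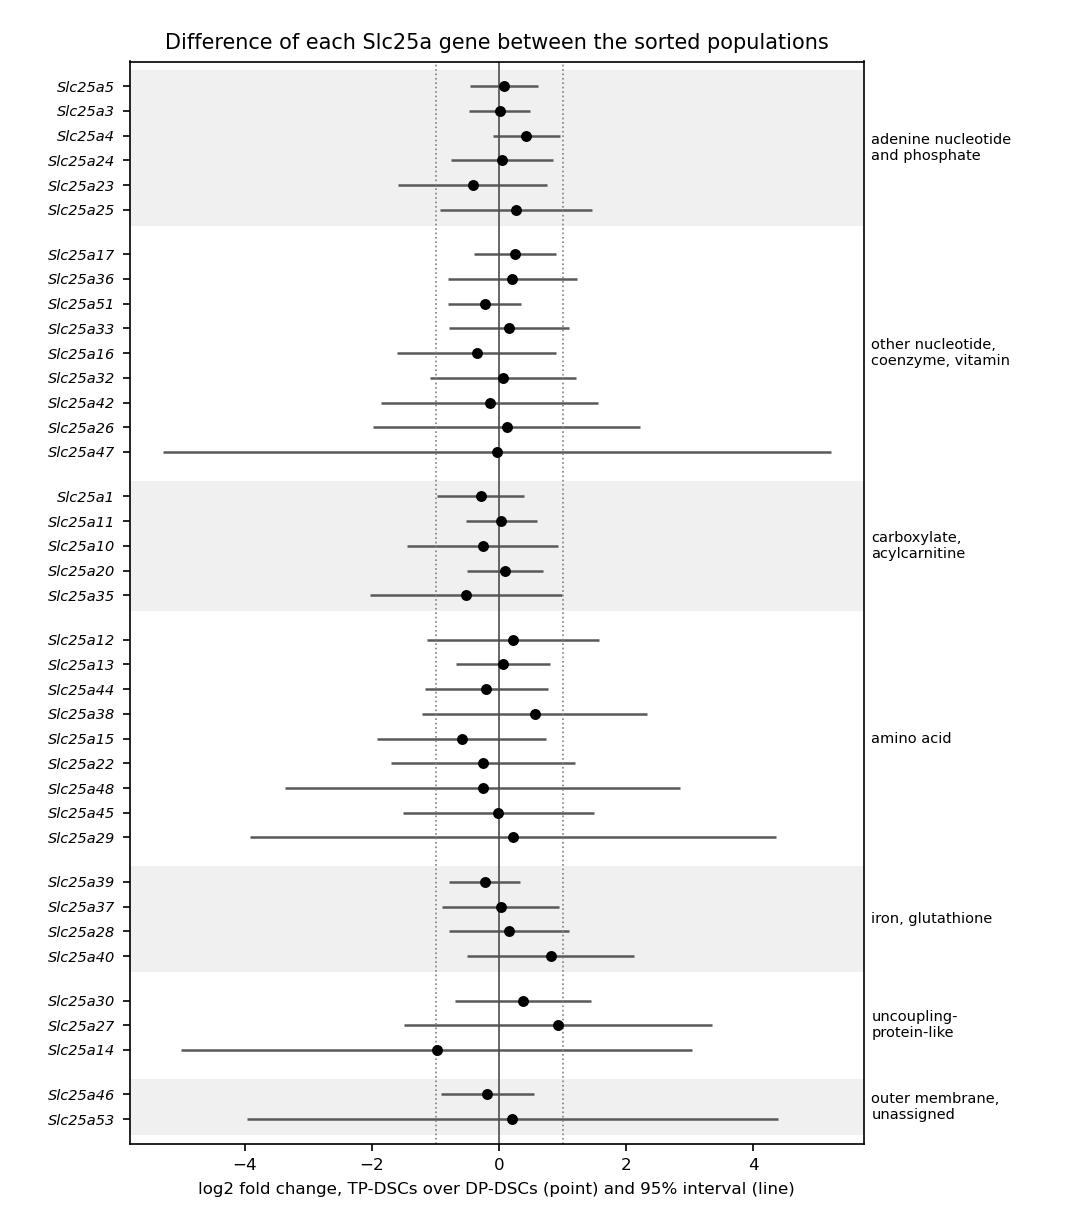
edgeR log2 fold change of TP-DSCs over DP-DSCs (points) with its 95% interval (lines) for the Slc25a genes of 1 CPM or more that are reported here, grouped by role, with dotted lines at a 2-fold difference. All intervals drawn include 0, and their width differs widely, with -0.47 to 0.49 for Slc25a3 the narrowest and -5.29 to 5.22 for Slc25a47 the widest.

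Most members, like most genes tested, varied more between the TP-DSCs libraries than between the DP-DSCs libraries. The coefficient of variation (SD over mean, of CPM) had a median of 48.3% over the TP-DSCs libraries and 21.5% over the DP-DSCs libraries for the members, beside 39.2 and 22.2% for all genes tested. It was larger in TP-DSCs for 33 of 39 members (84.6%), against 76.5% of all genes tested. The exceptions were Slc25a4, Slc25a13, Slc25a20, Slc25a24, Slc25a35 and Slc25a44. Of the 39 members, 5 (12.8%) had a TP-DSCs library without reads, among them Slc25a14, Slc25a29, Slc25a47 and Slc25a53, and 0 had such a DP-DSCs library. Over all genes tested the shares were 20.1 and 1.64%. Slc25a29, a carrier of basic amino acids, had 0, 6.35 and 7.98 CPM in TP-DSCs, against 3.68, 4.01 and 3.996 CPM in DP-DSCs, and its DP-DSCs mean was 3.90 CPM. Where that mean was 2 to 5 CPM, TP-DSCs replicates 1, 2 and 3 lacked reads for 43.6, 55.1 and 57.8% of 862 genes. A library without reads was thus common among TP-DSCs for genes as scarce in DP-DSCs as Slc25a29. Of these genes 85.96% lacked reads in at least 1 TP-DSCs library and 5.22% in at least 1 DP-DSCs library. They were picked by their DP-DSCs mean, so the 2 shares are not an even comparison.

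**Figure D4:**
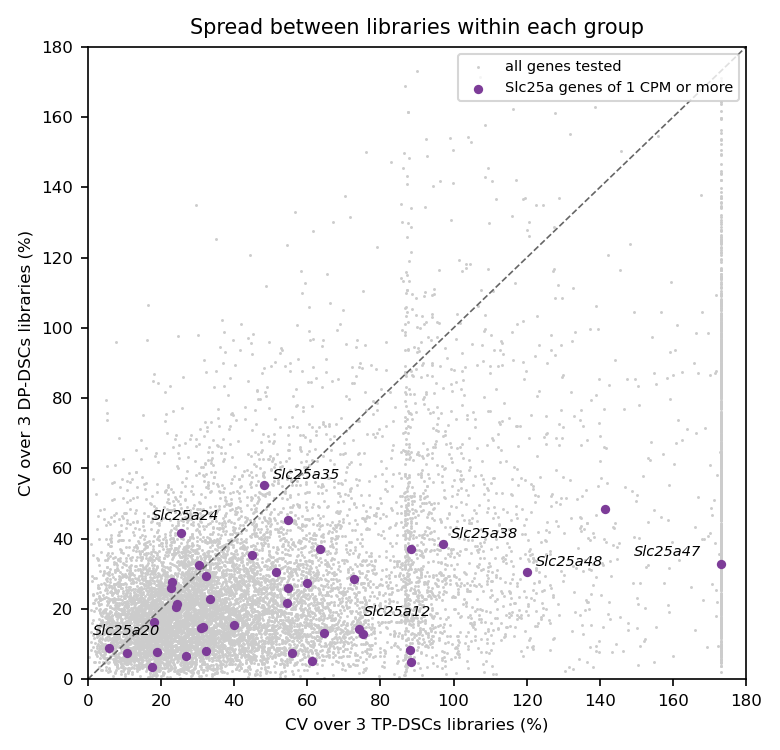
Coefficient of variation over the 3 TP-DSCs libraries (horizontal, %) and over the 3 DP-DSCs libraries (vertical, %) for all genes tested (grey) and the 39 Slc25a genes (purple), with a dashed line where both are equal. Of the Slc25a genes 33 lie below the line, with medians of 48.3% in TP-DSCs and 21.5% in DP-DSCs.

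The library names carry the number 3840 (replicate 1 of each group) or 4140 (replicates 2 and 3), whose meaning the labels do not give. Both 3840 libraries lay above all 4140 libraries for 8 members and below them for 3, together 11 of 39 (28.2%), against 23.4% of all genes tested (9.95% above and 13.5% below). The 8 were Slc25a1, Slc25a10, Slc25a16, Slc25a25, Slc25a32, Slc25a39, Slc25a42 and Slc25a48, and the 3 were Slc25a26, Slc25a29 and Slc25a38. The TP-DSCs minus DP-DSCs difference had the same sign within both numbers for 18 of 39 members, against 52.2% of all genes tested. The median member difference in log2 CPM was -0.021 within 3840 and -0.16 within 4140, beside -0.062 and -0.16 over all genes tested.

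Of the family members with symbols outside the Slc25a pattern, 3 were tested and 0 passed. The uncoupling protein Ucp2 had 688, 563 and 699.5 CPM in TP-DSCs, against 806, 688 and 582 CPM in DP-DSCs, while Ucp1, the brown fat uncoupler, had 0 reads in all libraries. Mtch2, an outer membrane relative that inserts proteins, had 201, 241 and 212 CPM in TP-DSCs, against 153, 196 and 181 CPM in DP-DSCs. It was the 1 of the 3 whose groups did not overlap, beside 12.9% of all genes tested (4.03% higher and 8.88% lower in TP-DSCs). The log2 fold change of Mtch2, 0.29 ± 0.16, did not pass (edgeR adjusted p = 0.999). The related Mtch1 averaged 184 ± 26.8 CPM in TP-DSCs and 204 ± 43.8 CPM in DP-DSCs (SD, n = 3 each).

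Lists around the carriers, chosen with earlier results of these data known, held 0 genes past the threshold in either direction in edgeR. Of 9 genes that import carriers into the inner membrane, 2 were fitted above and 7 below 0, with a median of -0.071. On the TMM scale the groups did not overlap for 1 gene higher in TP-DSCs (Timm9) and 2 lower (Timm10 and Tomm22). Over all genes tested 4.03% were apart upward and 8.88% downward. Timm10, a small chaperone of carrier import, averaged 12.1 ± 1.29 CPM in TP-DSCs and 25.1 ± 12.7 CPM in DP-DSCs (SD, n = 3 each). The DP-DSCs libraries had 18.4, 39.7 and 17.1 CPM, so replicate 2 raised that mean. The log2 fold change of Timm10 was -1.03 ± 0.52 (edgeR adjusted p = 0.991). Its partner Timm9 averaged 30.6 ± 5.34 CPM in TP-DSCs and 23.3 ± 1.03 CPM in DP-DSCs. The 16 ATP synthase genes had a median of 0.044, and Atp5b, the catalytic beta subunit, averaged 1855 ± 198 CPM in TP-DSCs and 2104 ± 91.3 CPM in DP-DSCs.

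Of 19 tested channels and transporters of other families, 11 had a fitted value above 0 and 8 one below it (median 0.017), and the outer membrane channel Vdac2 averaged 508 ± 16.3 CPM in TP-DSCs and 499.9 ± 46.7 CPM in DP-DSCs. The 28 enzymes that use the carried metabolites split into 11 above and 17 below 0, and their median was -0.044. Among them Acly, which splits the citrate that Slc25a1 exports, averaged 499.1 ± 46.1 CPM in TP-DSCs and 567 ± 19.0 CPM in DP-DSCs. The 11 regulators of mitochondrial biogenesis had a median of -0.13. Gabpa, a subunit of the factor NRF2/GABP, averaged 73.5 ± 21.1 CPM in TP-DSCs and 44.5 ± 10.7 CPM in DP-DSCs, a log2 fold change of 0.72 ± 0.29 with an unadjusted edgeR p of 0.0398 and an adjusted one of 0.729.

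Depth and purity were checked once for all libraries. Gene reads numbered 17015581 to 31068454 in TP-DSCs and 27027919 to 32671039 in DP-DSCs. Genes with a read averaged 10710 ± 235 in TP-DSCs and 13632 ± 1005 in DP-DSCs (SD, n = 3 each), and the permutation test, exact and two-sided, gave p = 0.1, its lowest possible value. The 6 epithelial markers summed to 7954 to 9435 CPM in TP-DSCs and 8453 to 10228 CPM in DP-DSCs, and all 6 were fitted below 0. Among them Cdh1 had 691, 811 and 739 CPM in TP-DSCs, against 794, 1342 and 1114 CPM in DP-DSCs. Its groups were apart on the TMM scale but not in plain CPM. On the TMM scale 12.9% of all genes tested were apart (4.03% higher and 8.88% lower in TP-DSCs). The log2 fold change of Cdh1 was -0.54 ± 0.22 (edgeR adjusted p = 0.744). Fibroblast markers summed to at most 2.90 CPM in TP-DSCs and 3.19 CPM in DP-DSCs, with Col1a2, Col3a1, Dcn and Lum at 0. Col1a1 had 0.040, 0 and 0 CPM in TP-DSCs, against 2.64, 0.704 and 1.48 CPM in DP-DSCs (edgeR adjusted p = 0.192). Immune markers, nearly all Cd68, summed to 0 to 17.3 CPM in TP-DSCs and 5.14 to 47.6 CPM in DP-DSCs, with Cd3e at 0. The parietal cell list held Gif, which chief cells make in mice, and Gif had 40.8, 0 and 0 CPM in TP-DSCs, against 97.7, 2.57 and 0.851 CPM in DP-DSCs. It was highest in the libraries named 3840, as was Slc25a10, and its part in that was not tested. Of the other parietal markers Atp4b had 0 reads, Kcne2 at most 0.0307 CPM, and Atp4a at most 8.30 CPM in TP-DSCs and 2.21 CPM in DP-DSCs. Endothelial, muscle, neuronal and brown fat markers summed to no more than 13.4 CPM in TP-DSCs and 8.35 CPM in DP-DSCs.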

How the data were processed

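The deposited files hold, for each library, 1 raw read count per gene symbol, made by the authors. STAR 2.7.3a, Partek, DESeq2 3.5 and build mm10 are named in the submitters' processing notes, without their roles; whether counting used strand is not given in the sources used here. Closing lines for reads in no gene (14.1 to 20.3% of reads) and ambiguous reads (1.09 to 1.86%) entered neither library sizes nor tests. Replicates differed beyond counting noise (chi-square of 112.2 to 306.1 per degree of freedom), so none was a copy of another.

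CPM is the count over the gene reads of the library. Tests ran on all genes in R 4.3.3 with edgeR 4.0.16 (filterByExpr with minimum count 10 and total 15, TMM scaling, quasi-likelihood test of group without covariates, Benjamini-Hochberg adjustment at 0.05), with TP-DSCs on top of each fold change. The SE is the log2 fold change over the square root of F, and 95% intervals use the t quantile of the fit. All 39 members of 1 CPM or more, and no others, passed the filter. Differences within a library number use log2 CPM with a prior count of 2. Whether groups overlap was read in TMM-scaled CPM. DESeq2 1.42.0 and limma 3.58.1 (voom) were alternatives. Lengths are the longest coding transcript of GENCODE M21, and which transcripts these cells use was not tested. Transcripts of any 2 members shared at most 48 identical bases in a row, and those of the 8 related pairs at most 21; 14 members share exon bases with another annotated gene, 12 of them with one on the opposite strand. Counts of 11925 genes were simulated with the gene-wise spread that edgeR had estimated. On these edgeR made 2.2 false calls on average and DESeq2 73, with DESeq2 recovering 13.2% of 2-fold and 59.6% of 4-fold changes.

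Members, lists and the roles used to group them were chosen with earlier results of these data known. Values in every library are given for the 10 most read members, the 8 with the smallest p in each direction and 8 related pairs; Slc25a20, Slc25a29 and Slc25a48 were added after their values were seen, as were Naif1 and Rangrf. Some items are counted in the totals but not reported here by name. Replicates were numbered by accession, which pairs no libraries.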

Additional observations from a re-analysis of the deposited data

How the results depend on the processing

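No Slc25a gene was called under any of the alternatives run. For all genes the number called was 93 with DESeq2 on the same genes and 267 with DESeq2 on all genes with reads (chosen after seeing the data), against 0 in edgeR. In the simulated counts DESeq2 made more false calls than edgeR, 73 against 2.2 on average. Those counts were drawn with the gene-wise spread that edgeR had estimated, the same in both groups. The comparison of the 2 tools was thus made under edgeR's own estimates and is not an even one. In these libraries the median coefficient of variation over all genes tested was 39.2% in TP-DSCs and 22.2% in DP-DSCs. Which of the DESeq2 calls in these data are false was not tested. The median member log2 fold change was -0.20 with limma-voom, where the median of all genes also lay at -0.15, 0.060 with DESeq2 size factors, -0.0056 with the library number as a block and -0.14 to 0.048 when 1 library was left out, so its sign was not fixed. Members whose groups did not overlap numbered 0 with library size only, 10 in the 4140 libraries alone (41.6% of all genes there) and 2 to 9 when 1 library was left out, where 16.7 to 31.8% of all genes were apart; fewer libraries make overlap rarer. Signs turned for 10 of the 21 genes followed: Slc25a3 to -0.012 without a filter, Slc25a11 to -0.027 with limma-voom, and, in the 4140 libraries alone, Slc25a3 to -0.070, Slc25a5 to -0.12, Slc25a11 to -0.021, Slc25a24 to -0.40 and Slc25a25 to -0.29. Leaving out 1 library gave -0.13 to 0.12 for Slc25a3, -0.10 to 0.25 for Slc25a5, -1.02 to 0.072 for Slc25a10, -0.13 to 0.24 for Slc25a11, -0.24 to 0.32 for Slc25a24, -0.38 to 0.59 for Slc25a25, -0.81 to 0.047 for Slc25a35, -0.20 to 0.56 for Slc25a36, -0.53 to 1.014 for Slc25a38 and -0.39 to 0.077 for Slc25a46. The other 11 kept their sign in every alternative, among them Slc25a4 (0.27 to 0.60 when 1 library was left out), Slc25a15 (-1.24 to -0.20), Slc25a23 (-0.84 to -0.017), Slc25a30 (0.036 to 0.66) and Slc25a40 (0.19 to 1.06).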
